A study of Homo sapiens with 9 samples.

Results

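A set of 10 genes for amino acid carriers of the plasma membrane was followed by symbol through the gene count table: *SLC7A5*, *SLC3A2*, *SLC7A8*, *SLC7A1*, *SLC1A4*, *SLC1A5*, *SLC38A1*, *SLC38A2*, *SLC36A4* and *SLC43A1*. All 10 were found among its 59452 rows, and 9 were among the 15528 genes that passed the filter on low counts, the exception being *SLC43A1*. The cells were MDA-MB-453, a wild-type human breast cancer line that the sample records describe as triple-negative. There were 3 groups of 3 RNA-seq libraries: attached cells with vehicle (DMSO), cells kept in forced suspension on poly-HEMA with vehicle, and suspended cells with 10 µM AT-0174 (AT0174 in the sample records), a dual inhibitor of the tryptophan-degrading enzymes TDO2 and IDO1. Cells were treated for 48 h in every group. All libraries came from 1 cell line, and the study's methods call the replicates biological, while the sample records do not say whether the 3 libraries of a group came from separate cultures. The p-values therefore describe the spread between these libraries.

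Amino acids cross the plasma membrane through carriers with overlapping substrates. SLC3A2 (CD98, 4F2hc) is a heavy chain that brings light chains such as SLC7A5 (LAT1) and SLC7A8 (LAT2) to the surface, and these exchange large neutral amino acids, tryptophan among them, for others inside the cell. LAT1 also carries kynurenine, the product of the pathway that AT-0174 blocks. SLC1A5 (ASCT2) and the sodium-coupled SLC38A1 (SNAT1) and SLC38A2 (SNAT2) take up glutamine and other neutral amino acids that such exchangers can use.

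The libraries held 36649997 to 48019126 estimated counts. The 7 luminal epithelial markers reported (KRT8, KRT18, KRT19, EPCAM, GATA3, FOXA1 and ERBB2) were well above the filter, with a summed level of 5480 to 5580 counts per 1000000 (CPM) in attached cells, 5740 to 5870 in suspension with vehicle and 5840 to 6030 with AT-0174. Of 7 markers of immune, endothelial, stromal and liver cells, 6 had at most 11 counts in any library and DCN had 0 in all, while COL1A1 ranged from 107 to 149 CPM. ERBB2, the HER2 receptor gene, was at 1030 to 1080 CPM although the line is labelled triple-negative, and these RNA levels do not give receptor status. The summed level of these non-luminal markers was 131 to 149 CPM in attached cells and 107 to 114 CPM in suspended cells with or without AT-0174, almost wholly from COL1A1, and its part in the results below was not tested. In the comparison of suspended with attached vehicle cells, 2 of the 7 luminal markers rose and COL1A1 fell by 0.28 on the log2 scale, when 10.4% of all genes tested rose and 10.8% fell.

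Promoter windows of 300 bases, from 250 before to 50 after the start of the main coding transcript, were searched on both strands for the amino acid response element core TGATGNAA, the E-box CACGTG bound by MYC and its relatives, and the core GCGTG bound by AHR with ARNT. The windows were read from GRCh38 at GENCODE transcript starts. For *SLC38A2* and *SLC36A4* the longest coding transcript was used. The response element core occurred in *SLC7A1* (first base at +8) and, on the minus strand, in *SLC1A4* (first base at −7), against 3.62% of 35116 RefSeq promoter windows of the same length. The E-box occurred in *SLC7A5* alone (first base at −130), against 7.26% of those windows. The AHR core was in 6 of the 10 windows, those of *SLC7A5*, *SLC3A2*, *SLC7A1*, *SLC1A4*, *SLC1A5* and *SLC38A1*, against 36.5%. The background windows were not matched for their share of G and C bases. That share was 61.3% to 82% in the 6 member windows with the AHR core and 53% to 72% in those without it. No match overlapped another of a different motif. Printed below, 5′ to 3′ and up to base +30, are the windows that held either of the rarer motifs, together with that of *SLC7A8*, the member that fell in suspension and whose window had no match. The windows of *SLC38A2*, *SLC36A4* and *SLC43A1* had no match either, and *SLC38A2* and *SLC36A4* did not pass in suspension. Capitals mark the E-box in *SLC7A5* and the response element core in *SLC7A1* and *SLC1A4*. A match describes the letters only.
SLC7A5, chr16:87869478-87869757 (minus strand): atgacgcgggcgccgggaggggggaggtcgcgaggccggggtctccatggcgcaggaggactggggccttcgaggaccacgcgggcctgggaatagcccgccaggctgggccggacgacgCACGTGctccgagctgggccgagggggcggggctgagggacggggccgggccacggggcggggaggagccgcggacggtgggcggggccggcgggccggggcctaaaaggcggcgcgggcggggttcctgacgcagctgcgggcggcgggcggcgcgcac
SLC7A1, chr13:29595659-29595938 (minus strand): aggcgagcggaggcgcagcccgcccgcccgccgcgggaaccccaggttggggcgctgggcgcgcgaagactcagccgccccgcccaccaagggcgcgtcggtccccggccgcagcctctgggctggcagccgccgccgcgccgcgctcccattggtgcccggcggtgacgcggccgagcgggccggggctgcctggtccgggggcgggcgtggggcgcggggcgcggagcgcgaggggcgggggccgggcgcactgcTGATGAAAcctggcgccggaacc
SLC1A4, chr2:64989149-64989428 (plus strand): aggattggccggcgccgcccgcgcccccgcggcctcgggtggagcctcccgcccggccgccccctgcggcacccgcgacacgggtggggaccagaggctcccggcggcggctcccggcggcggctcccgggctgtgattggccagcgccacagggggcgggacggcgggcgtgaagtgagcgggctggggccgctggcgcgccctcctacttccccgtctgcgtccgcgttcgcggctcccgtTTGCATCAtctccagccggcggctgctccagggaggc
SLC7A8, chr14:23183631-23183910 (minus strand): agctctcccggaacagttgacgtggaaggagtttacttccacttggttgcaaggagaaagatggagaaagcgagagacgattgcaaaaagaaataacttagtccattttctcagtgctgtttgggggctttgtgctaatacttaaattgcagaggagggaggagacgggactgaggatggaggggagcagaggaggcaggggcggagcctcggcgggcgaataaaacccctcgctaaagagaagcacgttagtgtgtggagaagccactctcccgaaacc

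The first question was how the carrier genes differed between suspended and attached cells, both with vehicle. *SLC7A5* rose the most of the 9 tested members, to 1.27 times its attached level, followed by *SLC7A1* at 1.18 times. *SLC38A1*, *SLC3A2* and *SLC1A4* rose by less, and *SLC7A8*, the other light chain, fell to 0.838 times. Thus 6 of 9 members passed an adjusted p of 0.05, 5 of them higher and 1 lower in suspension. Of all genes 21.2% passed, 10.4% higher and 10.8% lower. The members were chosen with earlier results of these data known, so counts of members beside those of all genes are a description only. The median log2 fold change was 0.13 over the members and 0 over all genes. Levels are given as CPM of library sizes scaled by the trimmed mean of M values (TMM), and fold changes and p-values come from one edgeR quasi-likelihood fit to all 9 libraries with Benjamini-Hochberg adjustment over 15528 genes. In bulk RNA, a lower level of a transcript per cell and fewer cells that express it cannot be told apart.

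**Figure D1:**
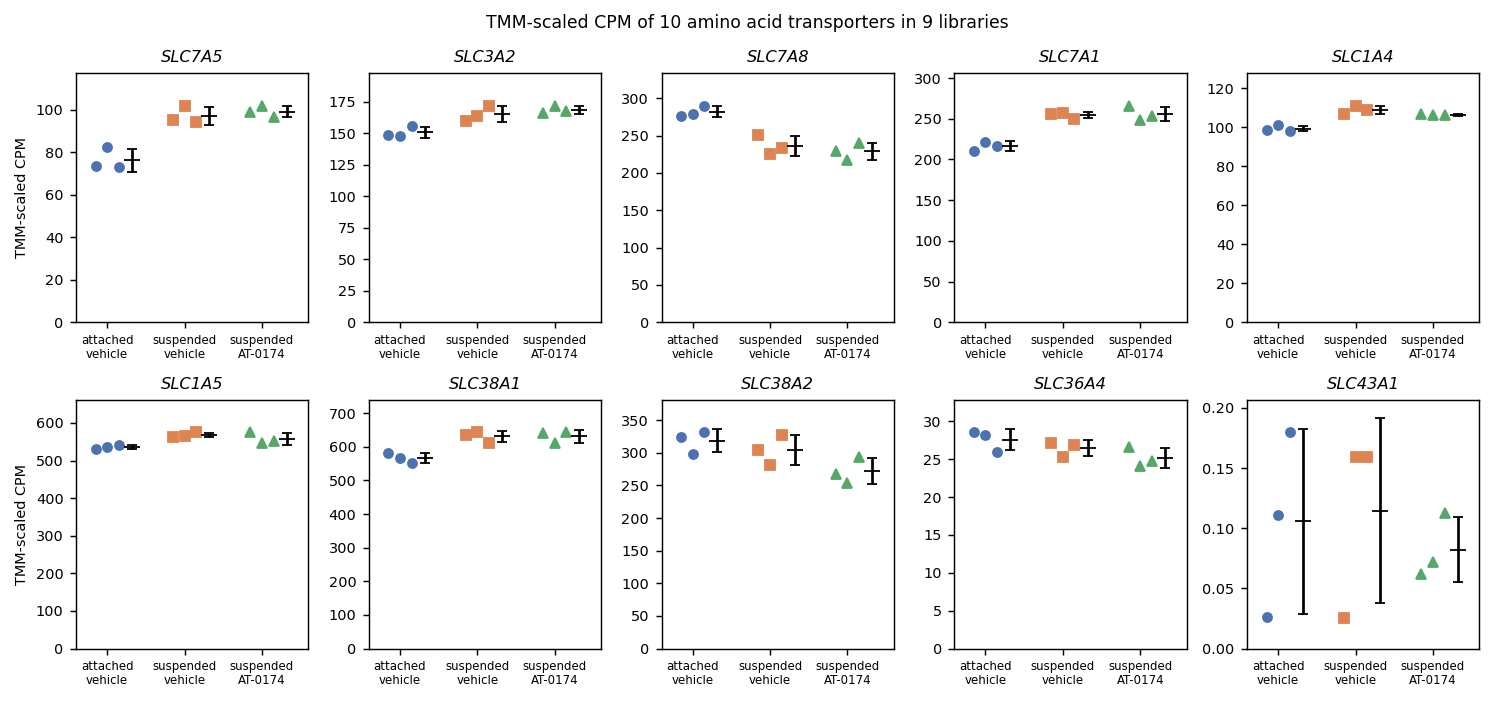
TMM-scaled CPM of the 10 transporter genes, with each library as a point, the 3 conditions along the horizontal axis and the mean with SD of 3 libraries as a black bar beside each group. Attached and suspended vehicle libraries do not overlap for SLC7A5, SLC3A2, SLC7A8, SLC7A1, SLC1A4, SLC1A5 and SLC38A1, whereas vehicle and AT-0174 libraries overlap in every panel but that of SLC1A4. The SLC43A1 panel rests on at most 7 counts per library.

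*SLC7A5* encodes the LAT1 light chain, which binds and moves the amino acid. Its 3 attached libraries had 73.4, 82.5 and 72.9 CPM, the suspended vehicle libraries 95.2, 102 and 94.4, and the AT-0174 libraries 99, 102 and 96.7. Every suspended library was above every attached one. The means of 76.3 ± 5.39 and 97.2 ± 4.19 CPM (SD, n = 3) differed by 0.35 on the log2 scale (SE 0.05, 95% interval 0.24 to 0.46, edgeR adjusted p = 0.000733). The gene lies on the minus strand of chromosome 16 (GRCh38 16:87830023-87869507). Its reads were assigned almost wholly to 1 transcript, ENST00000261622, at 100% of its transcripts per 1000000 (TPM) in each group. Related copies took few reads: SLC7A5P1 had 0 counts in every library and SLC7A5P2 at most 37, against 2808 or more for *SLC7A5*.

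*SLC3A2*, the CD98 heavy chain, had 149, 148 and 156 CPM in attached cells, 160, 164 and 172 in suspension with vehicle, and 166, 172 and 168 with AT-0174. The attached libraries were the 3 lowest. The rise from 151 ± 4.74 to 165 ± 6.4 CPM came to 0.13 on the log2 scale (SE 0.036, 95% interval 0.05 to 0.21, adjusted p = 0.0241). It passed in 12 of 17 alternative analyses. It did not pass without attached replicate 1, attached replicate 2, suspended vehicle replicate 2 or suspended vehicle replicate 3, where the log2 fold changes were 0.12, 0.12, 0.14 and 0.1, nor with counts rebuilt from TPM, where it was 0.08 with the highest adjusted p of 0.25.

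*SLC7A8* encodes LAT2, the light chain that pairs with the same heavy chain and has a broader range of neutral substrates. It had 276, 279 and 290 CPM in attached cells, 251, 225 and 233 in suspension with vehicle, and 230, 217 and 240 with AT-0174. All 6 suspended libraries were below the 3 attached ones. The mean fell from 282 ± 7.32 to 236 ± 13.3 CPM, a log2 fold change of −0.25 (SE 0.045, 95% interval −0.35 to −0.16, adjusted p = 0.00274). Both light chains passed in all 17 alternatives, with *SLC7A5* between 0.32 and 0.41 and *SLC7A8* between −0.3 and −0.22 on the log2 scale.

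The balance of these subunits was described by ratios of gene TPM, which are per length and within a library. The ratio of *SLC3A2* to *SLC7A5* was 6.26, 5.76 and 6.93 in attached cells, 5.28, 4.9 and 5.32 in suspension with vehicle, and 5.46, 5.53 and 5.95 with AT-0174. The heavy chain transcript was thus the more abundant in every library. The mean log2 ratio was 2.65 attached and 2.37 suspended, a difference of −0.29 (two-sided exact permutation p = 0.1, the smallest that 3 against 3 libraries allow), and 2.5 with AT-0174, a difference from vehicle of 0.13 (exact permutation p = 0.1). From the counts instead of TPM, these differences were −0.22 (exact permutation p = 0.2) and 0 (exact permutation p = 0.8). The ratio of *SLC7A5* to *SLC7A8* was 0.178, 0.201 and 0.167 in attached cells, 0.251, 0.308 and 0.277 in suspension with vehicle and 0.296, 0.312 and 0.272 with AT-0174. This second ratio was added with the values of both genes known and is given without a test. LAT2 transcripts exceeded LAT1 transcripts in all 9 libraries, by less in suspension.

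**Figure D2:**
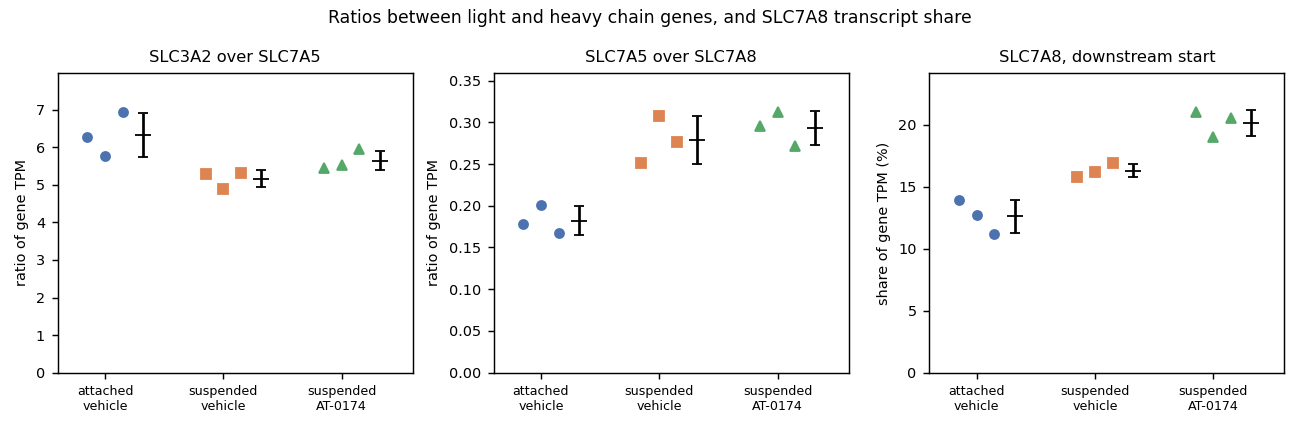
Ratio of SLC3A2 to SLC7A5 TPM (left), ratio of SLC7A5 to SLC7A8 TPM (middle) and percent of SLC7A8 TPM from 2 transcripts with a downstream start (right), with each library as a point and the mean with SD of 3 libraries as a black bar. The first ratio is 5.76 to 6.93 in attached libraries, 4.9 to 5.32 in suspension with vehicle and 5.46 to 5.95 with AT-0174, which overlaps the attached libraries. The second ratio is higher in every suspended library than in the attached ones, and the downstream share is 11.2% to 13.9%, 15.8% to 16.9% and 19% to 21% in the 3 groups.

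The transcript makeup of *SLC7A8* was taken from Salmon's estimates, which rest on short reads. Its main transcript ENST00000316902 held 61.8 ± 0.918% of gene TPM in attached cells, 61.7 ± 1.09% in suspended cells and 59.2 ± 1.29% with AT-0174. ENST00000422941 and ENST00000453702, which start 29.2 and 29.3 kb downstream within the gene, together held 13.9%, 12.7% and 11.2% in attached libraries, 15.8%, 16.2% and 16.9% in suspended vehicle libraries, and 21%, 19% and 20.5% with AT-0174. The 3 groups did not overlap in this summed share, which was singled out after its values were seen and was not tested. Neither transcript alone separated all 3 groups. ENST00000422941 held 7.42%, 6.9% and 9.72% on average and overlapped between the vehicle groups. ENST00000453702 held 5.19%, 9.38% and 10.5% and overlapped between vehicle and AT-0174. Of 30 member transcripts examined, 5 had separate shares in suspended and attached vehicle cells, and 7 with AT-0174 against vehicle. These were transcripts with a mean share of at least 5% in any group, without those of *SLC43A1*. Shares within a gene depend on each other. The portion of all transcripts with separate shares was not computed, so these counts are a description only.

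*SLC7A1* encodes CAT1, the main carrier of arginine and lysine in many cells. It had 210, 222 and 217 CPM in attached cells, 256, 257 and 250 in suspension with vehicle, and 266, 249 and 253 with AT-0174. Its suspended libraries were all higher, with no overlap. The log2 fold change in suspension was 0.23 (SE 0.034, 95% interval 0.16 to 0.31, adjusted p = 0.000861), from 216 ± 6.02 to 255 ± 4.07 CPM.

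Of the neutral amino acid carriers of the SLC1 family, *SLC1A4* passed the test in suspension and *SLC1A5* did not. *SLC1A4* (ASCT1), a carrier of alanine, serine and cysteine, had 98.8, 101 and 98.1 CPM attached, 107, 111 and 109 suspended with vehicle, and 107, 106 and 106 with AT-0174. It rose by 0.13 on the log2 scale (SE 0.03, 95% interval 0.07 to 0.2, adjusted p = 0.00803), with the attached libraries the 3 lowest. *SLC1A5*, the glutamine carrier ASCT2, had 531, 536 and 542 CPM attached, 564, 565 and 575 suspended with vehicle, and 576, 547 and 551 with AT-0174. The vehicle groups did not overlap, yet the log2 fold change of 0.08 (SE 0.029, 95% interval 0.02 to 0.15) did not pass (adjusted p = 0.0616). DESeq2, limma-voom and the edgeR fit without AT-0174 replicate 1 did call it, at the same 0.08.

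The sodium-coupled carriers *SLC38A1* and *SLC38A2* lie close to each other on the minus strand of chromosome 12 (GRCh38 12:46183063-46270017 and 12:46358188-46372773). *SLC38A1* had 581, 567 and 551 CPM attached, 636, 644 and 612 suspended with vehicle, and 640, 610 and 644 with AT-0174. It rose by 0.16 on the log2 scale (SE 0.034, 95% interval 0.08 to 0.23, adjusted p = 0.00714), without overlap between the vehicle groups. *SLC38A2*, a known target of the amino acid starvation response, had 325, 299 and 332 CPM attached and 304, 281 and 327 suspended with vehicle. These libraries overlapped, and the log2 fold change of −0.07 (SE 0.061, 95% interval −0.2 to 0.07) did not pass (adjusted p = 0.478).

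*SLC36A4*, a proton-coupled family member with affinity for tryptophan and proline, had 28.6, 28.2 and 26 CPM attached, 27.2, 25.3 and 26.9 suspended with vehicle, and 26.6, 24.1 and 24.8 with AT-0174. The groups overlapped, with a log2 fold change in suspension of −0.06 (95% interval −0.18 to 0.06, adjusted p = 0.475). *SLC43A1* (LAT3), a carrier of large neutral amino acids that needs no heavy chain, had 1, 4 and 7 counts in attached libraries, 1, 7 and 7 in suspended vehicle libraries and 3, 3 and 5 with AT-0174. It did not pass the filter on low counts, which was applied once over all 9 libraries, and it was not tested. Counting non-overlap alone, 7 of the 9 tested members had separate attached and suspended vehicle groups, 6 higher and 1 lower, against 38.1% of all tested genes, 19.4% higher and 18.7% lower.

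The second comparison asked how inhibition of TDO2 and IDO1 changed the carrier genes within suspended cells. In the edgeR fit 0 of 9 members passed, when 0.779% of all genes did (121 of 15528), 0.522% higher and 0.258% lower. At an unadjusted p under 0.05 the count was 1 member, *SLC38A2*, by edgeR, DESeq2 and limma-voom alike, and after adjustment it was 0 by each. The 3 tools used the same libraries, and the share of all genes at that unadjusted threshold was not computed. The median log2 fold change was −0.03 over the members and 0.001 over all genes. Of all genes 15.4% separated by CPM, 7.75% upward and 7.66% downward. Among the members only *SLC1A4* did, with its 3 AT-0174 libraries below the 3 vehicle libraries by CPM. Its log2 fold change was −0.04 (95% interval −0.1 to 0.03, adjusted p = 0.777), and its means were 109 ± 1.87 and 106 ± 0.71 CPM.

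*SLC38A2* had the lowest log2 fold change with AT-0174. Its AT-0174 libraries had 268, 254 and 293 CPM, against 304, 281 and 327 with vehicle, so the groups overlapped. The means were 272 ± 19.3 and 304 ± 23.1 CPM, a log2 fold change of −0.16 (SE 0.061, 95% interval −0.29 to −0.03, edgeR adjusted p = 0.406). It passed in 2 of 17 alternative fits, over which the adjusted p ranged from 0.00422 to 0.805. The lowest of these came when genes of low count were left in, at the same fold change, in a fit that called 499 genes instead of 121.

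For *SLC7A5* the log2 fold change with AT-0174 was 0.03 (95% interval −0.08 to 0.14, adjusted p = 0.919), for *SLC3A2* 0.03 (95% interval −0.05 to 0.11, adjusted p = 0.863) and for *SLC7A8* −0.04 (95% interval −0.14 to 0.05, adjusted p = 0.85). *SLC7A1* (0.01), *SLC38A1* (0) and *SLC1A5* (−0.03) stood near 0, and *SLC36A4* at −0.07 (95% interval −0.19 to 0.05). Leaving out *SLC38A2*, every member's interval in the edgeR fit lay within −0.19 to 0.14 on the log2 scale. Such intervals bound the difference in RNA for that fit only and do not show that the levels were equal. Over the 17 alternatives the *SLC3A2* value ran from 0 to 0.16, the latter above that range, and passed in 0 of them. By gene TPM, which is not TMM-scaled, the *SLC3A2* values did not overlap: 166, 170 and 171 with vehicle, 180, 181 and 189 with AT-0174. Its main coding transcript ENST00000338663 averaged 58.4 TPM with vehicle and 57.2 with AT-0174. The 552-base ENST00000537508, which has no defined coding sequence, averaged 3.28 and 13.5 TPM. *SLC1A4* also separated by TPM, downward: 46.7, 50 and 47.3 with vehicle, 45.9, 43.9 and 45.1 with AT-0174. The share of all genes that separated by TPM was not computed.

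**Figure D3:**
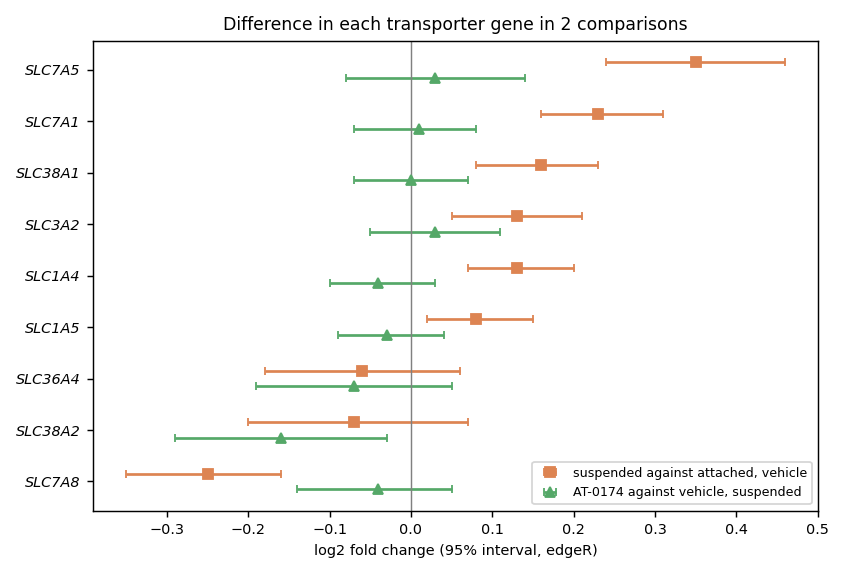
Log2 fold change with 95% interval (edgeR, horizontal axis) of the 9 tested transporter genes, for suspended against attached vehicle cells (squares) and for AT-0174 against vehicle in suspended cells (triangles). The suspension values run from −0.25 for SLC7A8 to 0.35 for SLC7A5, whereas the AT-0174 values run from −0.16 for SLC38A2 to 0.03 for SLC7A5 and SLC3A2.

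Suspended cells with AT-0174 were also set against attached cells with vehicle, a comparison in which both culture and inhibitor differ and which shares libraries with the other comparisons. Here 7 of 9 members passed, 5 higher and 2 lower, when 24% of all genes did, 12.2% higher and 11.8% lower. The groups did not overlap for 8 of 9 members, 6 higher and 2 lower, against 39.5% of all genes, 20.4% higher and 19.1% lower. The log2 fold changes, beside those for suspension alone, were 0.38 and 0.35 for *SLC7A5*, 0.16 and 0.13 for *SLC3A2* and −0.3 and −0.25 for *SLC7A8*. For *SLC7A1* they were 0.24 and 0.23, for *SLC38A1* 0.16 and 0.16, and for *SLC1A4* 0.1 and 0.13. *SLC38A2* was lower than in attached cells, at −0.23 (adjusted p = 0.0172), with its AT-0174 libraries all below the attached ones. That call was lost without attached replicate 1 (−0.21), attached replicate 3 (−0.2), AT-0174 replicate 1 (−0.22) or AT-0174 replicate 2 (−0.18). The *SLC1A4* call (adjusted p = 0.0339) held in 8 of 17 alternatives, and among those it failed in were the fits without attached replicate 1 or 3, suspended vehicle replicate 3 or any one AT-0174 library, at 0.09 to 0.1.

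The levels of the members were compared with each other per length. By gene TPM the order in attached cells was *SLC1A5* (277 ± 1.53), *SLC38A2* (227 ± 13.1), *SLC3A2* (150 ± 4.67), *SLC38A1* (132 ± 4.62), *SLC7A8* (131 ± 2.23), *SLC7A1* (41.6 ± 0.933), *SLC1A4* (38.7 ± 1.26), *SLC36A4* (30.4 ± 2.72), *SLC7A5* (23.8 ± 1.88) and *SLC43A1* (0.162 ± 0.177). *SLC38A1* and *SLC7A8* overlapped, and the other neighbours in that order did not. In suspension with vehicle *SLC7A5* (32.8 ± 1.73 TPM) stood above *SLC36A4* (30.3 ± 1.35 TPM), and *SLC3A2* (169 ± 2.73 TPM) overlapped *SLC38A1* (163 ± 3.15 TPM). With AT-0174 it was *SLC38A2* (186 ± 22.9 TPM) and *SLC3A2* (183 ± 5.11 TPM) that overlapped. Among 12967 genes with a mean of at least 1 TPM, *SLC1A5* stood at percentile 96.4, *SLC38A2* at 94.4, *SLC3A2* at 92.4, and *SLC7A5* and *SLC36A4* at 60.8 and 60.4. TPM values are not TMM-scaled, and the median gene was 0.1 higher on the log2 scale in suspended than in attached vehicle cells. In this paragraph TPM is therefore used for order and not for change. The subunit ratios and transcript shares above do set the groups side by side in TPM, as ratios within each library.

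Part of that order rested on short transcripts. The full-length coding transcript held 24.7 ± 2.57% of the attached gene TPM of *SLC38A2* and 11.6 ± 0.599% of that of *SLC36A4*, the rest being assigned to other, mostly shorter annotated transcripts. For *SLC3A2* the main coding transcript held 32.8 ± 1.81% among 40 annotated transcripts, whereas the share was 94.6 ± 0.925% for *SLC1A5* and 99.2 ± 0.713% for *SLC7A1*. As CPM per kilobase of the main coding transcript, a measure added after the data were seen, *SLC1A5* was again the highest in attached cells at 186 ± 1.91, followed by *SLC3A2* (80.1 ± 2.31), *SLC38A1* (69.9 ± 1.85), *SLC7A8* (66.5 ± 1.74) and *SLC38A2* (66.5 ± 3.63). *SLC7A5* (16.7 ± 1.19 CPM per kilobase) then stood above *SLC36A4* (4.57 ± 0.232 CPM per kilobase) in attached cells too. Of the 10 members, *SLC1A5*, *SLC7A1*, *SLC1A4* and *SLC43A1* had the same place in attached cells by both measures.

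**Figure D4:**
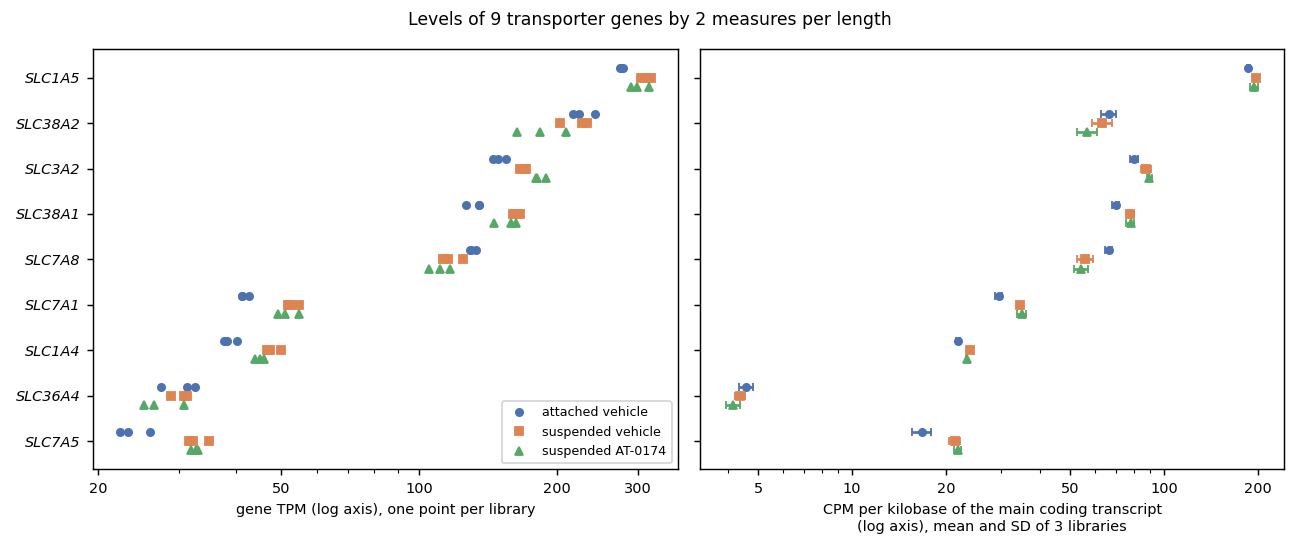
Levels of 9 transporter genes on log axes, as gene TPM with each library as a point (left) and as CPM per kilobase of the main coding transcript with the mean and SD of 3 libraries (right). SLC1A5 is highest by both measures in every group, while SLC38A2 stands lower among the members by CPM per kilobase than by TPM.

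Across the 9 libraries, the log2 CPM of *SLC7A5* followed that of *SLC7A1* (Pearson r = 0.95), *SLC1A4* (r = 0.92) and *SLC38A1* (r = 0.87), and ran opposite to that of *SLC7A8* (r = −0.94). Its correlation with *SLC3A2* was 0.79. The 9 points fall into 3 conditions, so these values are a description that the difference between attached and suspended cells enters. The genes most like *SLC7A5* among all tested were DERL1 (r = 0.989), DOLK (r = 0.986) and UCK2 (r = 0.984), and those most like *SLC3A2* were L3HYPDH (r = 0.972), INO80 (r = 0.966) and GDPD1 (r = 0.963).

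Other carriers of the plasma membrane were examined as a list of 31 genes, of which 10 were tested. In edgeR 1 was higher and 3 were lower in suspension, when 21.2% of all genes passed, and 1 was higher with AT-0174, when 0.779% passed, with medians of −0.09 and −0.04 on the log2 scale. The gene higher in both was *SLC7A11* (xCT), the cystine and glutamate exchanger that pairs with SLC3A2. It had 24.3, 23.8 and 23.2 CPM in attached cells, 35, 34.9 and 35.3 in suspension with vehicle and 56.9, 54.7 and 53.9 with AT-0174, with no overlap between any groups. Its log2 fold change was 0.56 in suspension (SE 0.041, adjusted p = 3.51e-06) and 0.65 with AT-0174 (SE 0.038, adjusted p = 2.5e-06), beside 0.13 and 0.03 for its heavy chain *SLC3A2*. With counts rebuilt from TPM the AT-0174 value was 0.5 and did not pass (adjusted p = 0.141).

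The 3 carriers that fell in suspension were *SLC1A7* (−0.48, adjusted p = 0.00418) and *SLC1A3* (−0.46, adjusted p = 0.00189), both glutamate transporters, and the taurine carrier *SLC6A6* (−0.14, adjusted p = 0.0288). The call for *SLC1A3* was lost with counts rebuilt from TPM (−0.27), and that for *SLC6A6* there (−0.14) and without attached replicate 1 (−0.15), attached replicate 3 (−0.11), suspended vehicle replicate 2 (−0.1) or suspended vehicle replicate 3 (−0.15). The glycine carrier *SLC6A9* passed in edgeR for suspended AT-0174 against attached vehicle cells (−0.21, adjusted p = 0.00605). For AT-0174 against vehicle its value was −0.16 (edgeR adjusted p = 0.165), which DESeq2 and the fit with no filter on low counts called lower. The fit with no filter also called *SLC6A6* lower with AT-0174 (edgeR value −0.15, adjusted p = 0.182). By gene TPM in attached cells the most abundant of the list were *SLC1A7* (92.7 ± 10.4), *SLC7A6* (61.1 ± 3.86), a further light chain of SLC3A2, and *SLC6A9* (53.8 ± 1.23), all above *SLC7A5*.

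**Figure D5:**
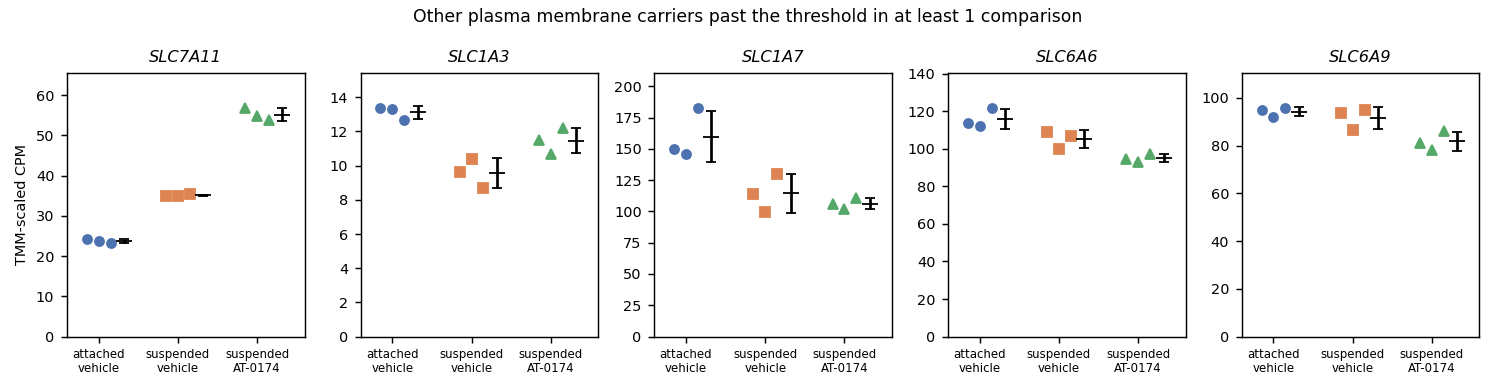
TMM-scaled CPM of the 5 other plasma membrane carriers that passed the threshold in at least 1 comparison, with each library as a point and the mean with SD of 3 libraries as a black bar. SLC7A11 rises from 23.8 to 35.1 to 55.1 CPM on average over the 3 groups, and SLC1A7 falls from 160 to 114 to 107 CPM.

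Genes linked to the carriers by location, regulation or binding were read as 4 further lists. Of 7 lysosomal amino acid carriers 6 were tested, and their median difference in suspension was 0 on the log2 scale. Among them 1 passed in suspension, when 21.2% of all genes did. This was *SLC38A7*, a lysosomal glutamine exporter, which fell (−0.22, edgeR adjusted p = 0.0234). That call was lost with counts rebuilt from TPM (−0.2). It was also lost without attached replicate 3 (−0.14), suspended vehicle replicate 1 (−0.17) or suspended vehicle replicate 2 (−0.22). Of 24 tested genes of the amino acid response, the response through which ATF4 raises carriers and enzymes of amino acid synthesis, 4 rose and 1 fell in suspension, with a median of 0.05, when 21.2% of all genes passed. They included the pseudokinase gene *TRIB3* (0.19, adjusted p = 0.00304), the proline synthesis gene *PYCR1* (0.15, adjusted p = 0.00964) and the mitochondrial folate enzyme gene *MTHFD2* (0.15, adjusted p = 0.0113), which rose, and *CBS* (−0.31, adjusted p = 0.00798), an enzyme of cysteine synthesis, which fell. With counts rebuilt from TPM the calls for *PYCR1* (0.16) and *MTHFD2* (0.1) were lost. *ATF4* itself had a log2 fold change of −0.01 (95% interval −0.09 to 0.07). Of 15 tested regulators of carrier genes, whose median was 0, 2 passed against the same 21.2% of all genes. The transcription factor *MYC* (0.48, adjusted p = 4.38e-05) and the mTORC1 activator *RHEB* (0.11, adjusted p = 0.0333) rose. The *RHEB* call was lost with counts rebuilt from TPM and whenever any attached or suspended vehicle library was left out (0.1 to 0.12). Of 6 tested binding partners of the carriers, with a median of 0.05, *SLC7A11* alone passed in suspension and with AT-0174. Of all genes 21.2% and 0.779% passed. *SLC7A11* is the same gene already given among the other plasma membrane carriers. With AT-0174, edgeR called 0 genes of the lysosomal, amino acid response and regulator lists, when 0.779% of all genes passed. At an unadjusted p under 0.05 these lists had 1, 3 and 1 genes, and the share of all genes there was not computed. Limma-voom gave the same counts, and DESeq2 called *TRIB3* and gave 0, 3 and 1 genes at an unadjusted p under 0.05.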

How the data were processed

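RNA-seq was made from 9 libraries of MDA-MB-453 cells, 3 in each of 3 conditions, grouped by the sample records. The submitters' processing notes name Cutadapt 3.4, Trim Galore 0.6.7, STAR 2.7.9a, Salmon 1.10.1 and GRCh38. The authors made the deposited estimated counts per gene with Salmon, without normalization, and the deposited TPM values per transcript, which Salmon scales by effective length and library. The sample records name a SMARTER kit and the study's methods a Universal Plus mRNA kit, and strand use in counting was not given in the sources used here.

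Estimated counts were rounded to whole numbers. The values of *SLC7A5* differed from whole numbers by up to 0.376 counts and those of the other members by at most 0.002. Genes were filtered with filterByExpr, scaled by TMM and fitted with edgeR 4.0.16 (R 4.3.3) by quasi-likelihood, with condition as the only term. The study's methods name limma, and limma-voom (limma 3.58.1) was an alternative because the values are counts. Standard errors are the log2 fold change over the square root of F. Adjusted p under 0.05 was called. Gene TPM is the sum over a gene's transcripts. Positions and transcripts were taken from GENCODE release v44 and promoter backgrounds from RefSeq (GRCh38.p14). The windows of 5 members were identical to those in the RefSeq table. The scripts were tested on simulated data.

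The members and lists were chosen with earlier results of these data known. Named genes are all members, other plasma membrane carriers that passed in any comparison or were among the 3 most abundant, up to 4 called genes with the smallest p from each further list, and the 3 genes most correlated with *SLC7A5* and with *SLC3A2*. *ATF4* and the marker genes are named outside this rule, and a luminal marker of the list is not reported here. As alternatives, each library was left out in turn, the replicate number was added as a block, counts were rebuilt from TPM, the fit was limited to the 6 libraries compared, the filter was dropped or set to at least 10 counts in every library, TMM was replaced by DESeq2 size factors, and the test by DESeq2 1.42.0 or limma-voom. CPM per kilobase was added after the data were seen. Libraries held 36649997 to 48019126 estimated counts.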

Additional observations from a re-analysis of the deposited data

How the results depend on the processing

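In the comparison of suspended with attached vehicle cells, the count of members called was 5 to 7 in all 17 alternatives, and for suspended AT-0174 against attached cells it was also 5 to 7. For AT-0174 against vehicle the count was 0 except for 1, *SLC38A2*, with no filter on low counts (adjusted p = 0.00422) and with the replicate block (adjusted p = 0.0374). Over all genes, deviations of libraries with the same replicate number correlated between −0.065 and 0.053. That does not settle pairing for single members. *SLC38A2* CPM was lowest in replicate 2 and highest in replicate 3 in every group. *SLC7A5* CPM was highest in replicate 2 and lowest in replicate 3 in every group. The other tested members did not keep 1 order in all groups, and pairing was not tested further. With the replicate block 6 and 7 members were called in the comparisons with attached cells.

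The count over all genes was 3297 for suspension, and it was 1726 with counts rebuilt from TPM and 1935 to 3260 with 1 library left out, the lowest without attached replicate 3, with 1951 without suspended vehicle replicate 2. For AT-0174 against vehicle it was 121, against 239 by DESeq2, 499 with no filter, 35 with counts rebuilt from TPM, 146 with the replicate block and 63 to 128 with 1 library left out (63 without AT-0174 replicate 1). For AT-0174 against attached cells it was 3724, against 2076 with counts rebuilt from TPM and 2239 to 3680 with 1 library left out. The cause of these differences was not tested.

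Members near 0 with AT-0174 changed sign under some alternatives, never past the threshold: *SLC7A1* was −0.02 to 0.03 with 1 library left out, below 0 without suspended vehicle replicate 3 (−0.01) or AT-0174 replicate 1 (−0.02), and *SLC38A1* was 0 (just below) with DESeq2 size factors, DESeq2 and at least 10 counts, −0.02 with counts rebuilt from TPM, and −0.02 to 0.02 with 1 library left out. The log2 ratio of *SLC3A2* to *SLC7A5* differed by −0.35 to −0.22 for suspension and by 0.09 to 0.15 for AT-0174 with 1 library left out. With 3 libraries a group, exact tests cannot go below p = 0.1.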
